A study of Mus musculus with 6 samples.

Results

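The glutathione transferases, UDP-glucuronosyltransferases, sulfotransferases and aldehyde dehydrogenases are families of conjugating and aldehyde-clearing enzymes, looked at here in epidermis. They were taken as every gene of the deposited expression table whose mouse symbol begins with Gsta, Gstm, Gstp, Gstt, Gsto, Gstk, Gstz, Ugt1, Ugt2, Sult or Aldh, apart from the retinaldehyde dehydrogenases Aldh1a1, Aldh1a2 and Aldh1a3. That gave 87 of the 49386 genes in the table, of which 79 are protein coding and 8 are pseudogenes. Among them were 24 glutathione transferases, 19 UDP-glucuronosyltransferases, 26 sulfotransferases and 18 aldehyde dehydrogenases. The study asked how mRNA levels differ in epidermis that lacks Rictor, a defining subunit of mTOR complex 2. RNA of separated epidermis was sequenced from C57BL/6 mice at E19.5, shortly before birth, in 3 libraries labelled Control (261, 262 and 264) and 3 labelled Rictor -/- (263, 265 and 266), called control and knockout here. No Cre driver, floxed allele or further genotype of the controls is named, and nothing says that every library is a separate animal. P-values therefore measure only the spread between these libraries, which may be technical in part.

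Glutathione transferases join the tripeptide glutathione to electrophiles such as lipid aldehydes and drug metabolites, and their classes are named by Greek letters. UDP-glucuronosyltransferases attach glucuronic acid to bilirubin, steroids, retinoids and phenols, and the Ugt1a genes are made by splicing different first exons to a shared set of last exons. Sulfotransferases transfer sulfate, and Sult2b1 makes the cholesterol sulfate of the cornified layer. Aldehyde dehydrogenases oxidise aldehydes from lipid peroxidation, fatty alcohols, amino acids and ethanol to acids, and loss of the fatty aldehyde dehydrogenase ALDH3A2 causes an inherited ichthyosis in humans.

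Several facts of the libraries bear on every value. Levels are FPKM, fragments normalised to transcript length and library size, and values are listed in the order 261, 262, 264 for controls and 263, 265, 266 for knockouts. Rictor itself was not lower in the knockout libraries, with 5.63, 6.02 and 4.37 FPKM against 6.83, 7.04 and 6.86 FPKM (limma adjusted p = 0.0695). Reads outside a deleted part still count toward this gene-wide level, so the labels could not be checked by it, and every direction given is that of the libraries labelled Rictor -/- against those labelled Control. Deviations from a gene's mean followed gene length, with Spearman's rho across genes of -0.00709, 0.00280 and -0.358 in the controls and 0.173, 0.191 and 0.263 in the knockouts. Genes are not independent replicates, and this trend moved with the label. The counts of called markers that follow stand beside 15.6% called lower and 7.91% called higher of all genes tested. Without control 264, 2270 (16.8%) were lower and 1514 higher of 13478 genes. Of the listed basal keratinocyte markers 5 of 8 were called higher and 1 lower, with a summed level of 8363 to 8750 FPKM in controls and 12312 to 14190 FPKM in knockouts. Hair follicle markers were called lower in 10 of 11 tested (1856 to 2328 against 1121 to 1298 FPKM summed) and sebaceous gland markers in 8 of 10 (163 to 221 against 86.0 to 101 FPKM). The sebaceous gland list includes the microsomal glutathione transferase Mgst1, at 78.46 ± 24.29 against 34.95 ± 4.70 FPKM. The sum of that list is therefore in part the level of a glutathione transferase. Its other genes called lower were Awat2, Cidea, Elovl3, Far2, Pparg, Scd3 and Soat1. Langerhans and myeloid markers were called lower in 8 of 11, or 5 without control 264 (187 to 222 against 149 to 166 FPKM summed), melanocyte markers in 4 of 8, and fibroblast markers were called higher in 3 of 7. Differentiating keratinocyte markers were called lower in 2 of 8, or 4 without control 264. T cell markers were called lower in 3 of 4 and higher in 1, Thy1 (9.21 ± 2.65 against 29.2 ± 1.99 FPKM), or 1 and 1 without control 264, and their sum, 15.5 to 24.3 FPKM in controls and 31.0 to 33.6 FPKM in knockouts, was mostly Thy1 in the knockouts. Endothelial markers summed to at most 1.55 FPKM in any library, and Cd207, the langerin of mature Langerhans cells, was at most 0.116 FPKM. In bulk epidermis, fewer cells of a type and less RNA per cell cannot be told apart, and the part of these shifts in the results below was not tested.

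Most of the detoxification genes that could be tested were lower in knockout epidermis. Of 87 genes, 35 reached a group mean of 1 FPKM, and 23 of these fell and 2 rose, while 10 did not pass (limma on log2(FPKM + 1), Benjamini-Hochberg adjusted over 13500 genes, threshold 0.05). Over all 13500 genes 15.6% were called lower, 7.91% higher and 23.5% in either direction. The median log2 difference was -0.47 over the 35 genes and -0.06 over all genes tested, and 29 of the 35 differences were negative, against 58.8% of all genes. By family, 9 of 16 tested glutathione transferases fell and 1 rose, 4 of 4 UDP-glucuronosyltransferases fell, 10 of 14 aldehyde dehydrogenases fell, and the 1 tested sulfotransferase rose. The 4 UDP-glucuronosyltransferases are of the Ugt1a locus and share exons, so their levels are not separate measurements. The 2 that rose were the alpha class transferase Gsta4 and the sulfotransferase Sult2b1. In 25 of the 35 genes every knockout library was below every control and in 2 every knockout library was above, against 29.2% and 16.6% of all genes tested. Ugt1a6b, called lower, and Gstm7, not called, reached 1 FPKM through the controls alone, and both are among those 25 genes.

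**Figure D1:**
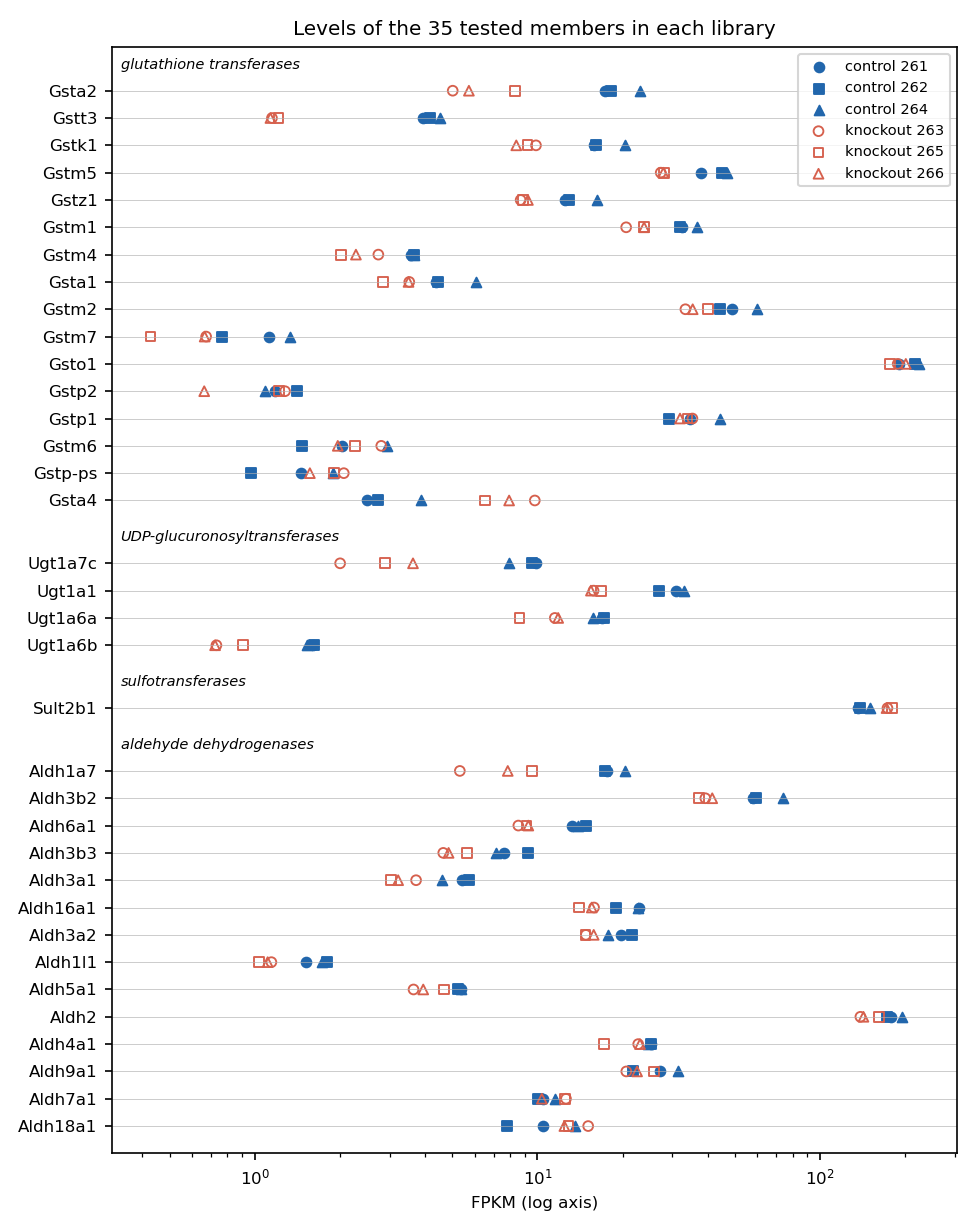
FPKM of the 35 tested genes in each library on a log axis, grouped by family and ordered by their log2 difference; filled blue symbols are controls and open red symbols knockouts. The red symbols lie to the left of the blue ones for 25 genes and to the right for Gsta4 and Sult2b1.

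The balance of calls and their number changed with the scaling. As deposited, 33.7% of all called genes and 8% of called detoxification genes were higher. Median scaling between libraries gave 49.8% and 9.52%, trimmed mean scaling 49.7% and 9.52%, quantile normalization 47.9% and 9.09%, and removal of the length and GC trend from each library 50.8% and 11.8%. The detoxification genes called higher numbered 2 in each of these, so the second share moved only with the number called lower. After the length and GC adjustment 15 of the 35 genes were called lower (42.9%, from 65.7%), against 12.1% of all genes (from 15.6%). The aldehyde dehydrogenases called lower went from 10 to 6 under median scaling, trimmed mean scaling and the length and GC adjustment. All genes called lower were then 12%, 12% and 12.1%. They also went to 6 with a sex term, no filter on low values and without control 261 or 262 (9.02%, 5.58%, 9.55% and 11.4% of all genes). Without 263 they went to 5 and without 266 to 4 (7.3% and 7.42% of all genes). Glutathione transferases called lower went from 9 to 6 in the length and GC adjustment and without 261, 265 or 266. Detoxification transcripts are short, with a median exonic length of 2224 bases against 4036 over all genes tested. Among tested genes of at most 2500 exonic bases, 20.8% of 3728 were called lower (median log2 -0.17), and of the 19 detoxification genes in that class 63.2% (median -0.47). Leaving out 1 library left between 13 detoxification genes called lower (without knockout 266) and 19 (without control 264), with 15 without 263. The shares of all genes called lower were 7.42%, 16.8% and 7.3% in the same order, from 15.6%.

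**Figure D2:**
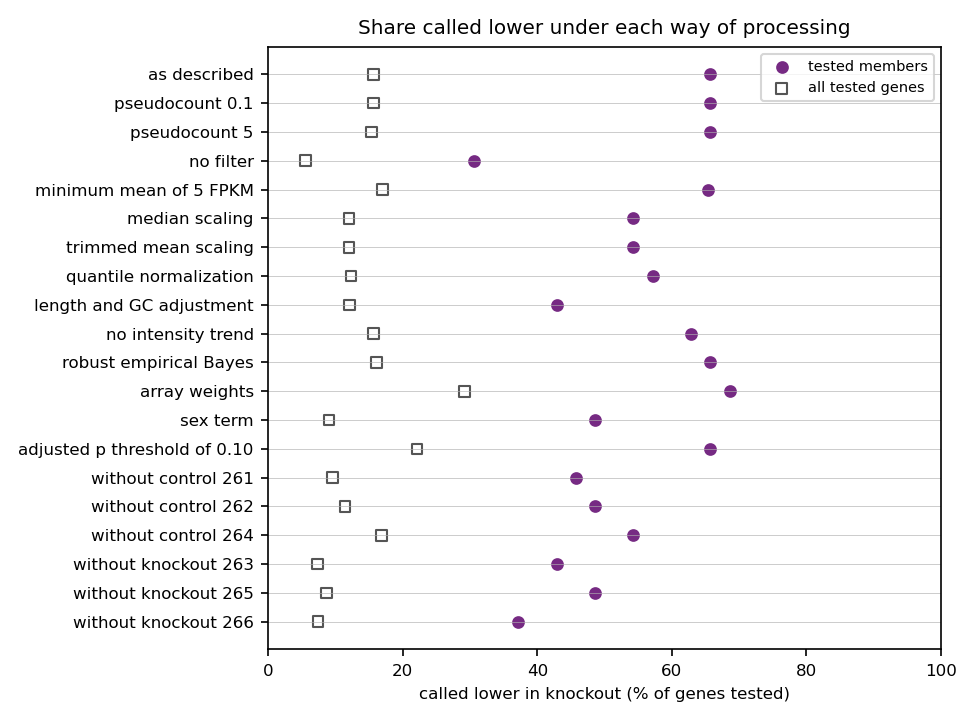
Share of tested genes called lower in knockout, in percent, for the detoxification genes (filled circles) and for all genes tested (open squares) under each way of processing. The filled circles run from 30.5% without a filter on low values to 68.6% with array weights, and the open squares from 5.58% to 29.2% under the same settings.

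Upstream sequences are shown for 6 of the genes that fell. They are the neighbours Gsta1 and Gsta2, Gstm5, which holds a stress-factor motif, and Ugt1a1, Ugt1a6a and Ugt1a7c. The upstream windows of Gsta1 and Gsta2 are the most alike of the called genes. The 3 Ugt1a genes share exons and were measured per gene, so their falls are not separate measurements of their first exons. Each sequence is the 250 bases before the RefSeq start (GRCm38.p6), 5′ to 3′ on the gene's strand. Capitals mark matches to TGACNNNGC, the core of the antioxidant response element bound by NRF2, and to GCGTG, the core bound by the aryl hydrocarbon receptor, searched on both strands.
Gsta1 (chr9:78230419-78230668, plus strand): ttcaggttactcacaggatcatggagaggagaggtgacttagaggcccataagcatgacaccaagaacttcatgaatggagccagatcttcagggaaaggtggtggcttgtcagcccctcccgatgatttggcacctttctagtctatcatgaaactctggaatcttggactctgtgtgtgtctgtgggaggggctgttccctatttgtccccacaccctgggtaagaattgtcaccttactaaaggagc
Gsta2 (chr9:78347146-78347395, minus strand): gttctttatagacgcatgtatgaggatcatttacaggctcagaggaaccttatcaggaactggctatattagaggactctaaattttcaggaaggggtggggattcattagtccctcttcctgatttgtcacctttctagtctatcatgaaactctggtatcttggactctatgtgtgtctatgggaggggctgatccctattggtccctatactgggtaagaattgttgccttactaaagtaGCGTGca
Gstm5 (chr3:107895604-107895853, plus strand): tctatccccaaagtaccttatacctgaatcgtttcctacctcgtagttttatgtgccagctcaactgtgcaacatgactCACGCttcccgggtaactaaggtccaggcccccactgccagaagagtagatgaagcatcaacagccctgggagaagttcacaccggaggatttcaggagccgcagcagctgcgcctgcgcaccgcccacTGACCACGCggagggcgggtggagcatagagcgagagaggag
Ugt1a1 (chr1:88211709-88211958, plus strand): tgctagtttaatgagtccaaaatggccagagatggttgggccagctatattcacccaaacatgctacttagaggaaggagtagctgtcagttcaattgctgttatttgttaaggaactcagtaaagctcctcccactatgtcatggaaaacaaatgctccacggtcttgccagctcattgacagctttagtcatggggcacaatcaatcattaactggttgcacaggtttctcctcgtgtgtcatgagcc
Ugt1a6a (chr1:88134559-88134808, plus strand): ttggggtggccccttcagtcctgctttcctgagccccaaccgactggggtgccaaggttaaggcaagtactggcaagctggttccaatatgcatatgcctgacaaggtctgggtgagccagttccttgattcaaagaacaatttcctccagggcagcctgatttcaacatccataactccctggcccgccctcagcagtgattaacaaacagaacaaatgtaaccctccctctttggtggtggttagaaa
Ugt1a7c (chr1:88094751-88095000, plus strand): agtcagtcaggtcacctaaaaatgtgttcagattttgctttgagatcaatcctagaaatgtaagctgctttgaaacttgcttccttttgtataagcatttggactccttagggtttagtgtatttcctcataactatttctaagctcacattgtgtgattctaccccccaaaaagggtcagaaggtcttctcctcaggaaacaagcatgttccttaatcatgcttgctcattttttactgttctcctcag
Gsta2 holds a GCGTG that begins 7 bases before the start, and Gsta1 holds neither motif. Gstm5 holds a TGACNNNGC beginning 42 bases before the start, whose last bases are also a GCGTG on the other strand, and another such match beginning 171 bases before. The 3 Ugt1a windows hold no match. RefSeq upstream windows were found for 67 of the 87 genes and 20 of the 25 called ones, Gsta4 not among them. TGACNNNGC was in 1 of 24 windows of genes that fell against 10.2% of all 32851 windows, and GCGTG in 6 of 24 against 28.2%. The overlapping windows of Gstm1 hold the same GCGTG, which is counted for each. A match is only a description of these letters, and sites further upstream were not searched, so a window without a match does not show that a gene lacks such sites. Gsta1 and Gsta2 were identical at 70.5% of aligned positions, the highest of 190 pairs of called genes (median 45.5%), while Ugt1a1 and Ugt1a7c shared 50%, Ugt1a1 and Ugt1a6a 48.4% and Ugt1a6a and Ugt1a7c 45.4%.

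Alpha class glutathione transferases moved in both directions within a single cluster on chromosome 9, where Gsta4 (ENSMUSG00000032348, 78182774 to 78209349), Gsta1 (ENSMUSG00000074183, 78230656 to 78242684) and Gsta2 (ENSMUSG00000057933, 78331018 to 78355788, GRCm38) lie in that order. Gsta2 fell, with 17.3, 18.3 and 23.0 FPKM against 5.01, 8.33 and 5.72 FPKM. Its group means were 19.53 ± 3.04 and 6.35 ± 1.74 FPKM (SD, 3 libraries each), and its log2(FPKM + 1) difference was -1.50 ± 0.18 (SE; limma adjusted p = 0.00373). The groups lay far apart, with control 264 highest and knockout 263 lowest. Gsta4, which conjugates the lipid peroxidation product hydroxynonenal, gave 2.50, 2.73 and 3.88 FPKM against 9.79, 6.51 and 7.94 FPKM. It rose 2.66-fold in mean FPKM, from 3.04 ± 0.740 to 8.08 ± 1.64 (1.17 ± 0.17, limma adjusted p = 0.00640). Library 263, with the lowest Gsta2, had the highest Gsta4. The ratio of Gsta4 to Gsta2 in FPKM was 0.144, 0.150 and 0.169 over the controls and 1.95, 0.782 and 1.39 over the knockouts, so Gsta4 was the lower of the pair in every control and the higher in 263 and 266.

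Gsta1 was called lower, with 4.37, 4.46 and 6.04 FPKM against 3.52, 2.84 and 3.50 FPKM (-0.47 ± 0.13, limma adjusted p = 0.0438), and its gap to Gsta2 was not tested. Its call was lost without any 1 of the 6 libraries (adjusted p = 0.0528 without control 264 to 0.125 without 265), in the length and GC adjustment, under quantile normalization, without a filter and with a sex term. Only 10.3% of the 50-base windows of its longest GENCODE transcript occur in no other gene, against 35.8% for Gsta2 and 100% for Gsta4, and how shared reads were assigned is not stated. The values of Gsta1 and Gsta2 are thus uncertain as single genes, while Gsta4 shares no window with a relative. Gsta3, the alpha gene on chromosome 1, was under the test limit at 0.467, 0.388 and 0.649 FPKM against 0.0975, 0.185 and 0.147 FPKM. Its 3 knockout libraries were all below its controls.

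**Figure D3:**
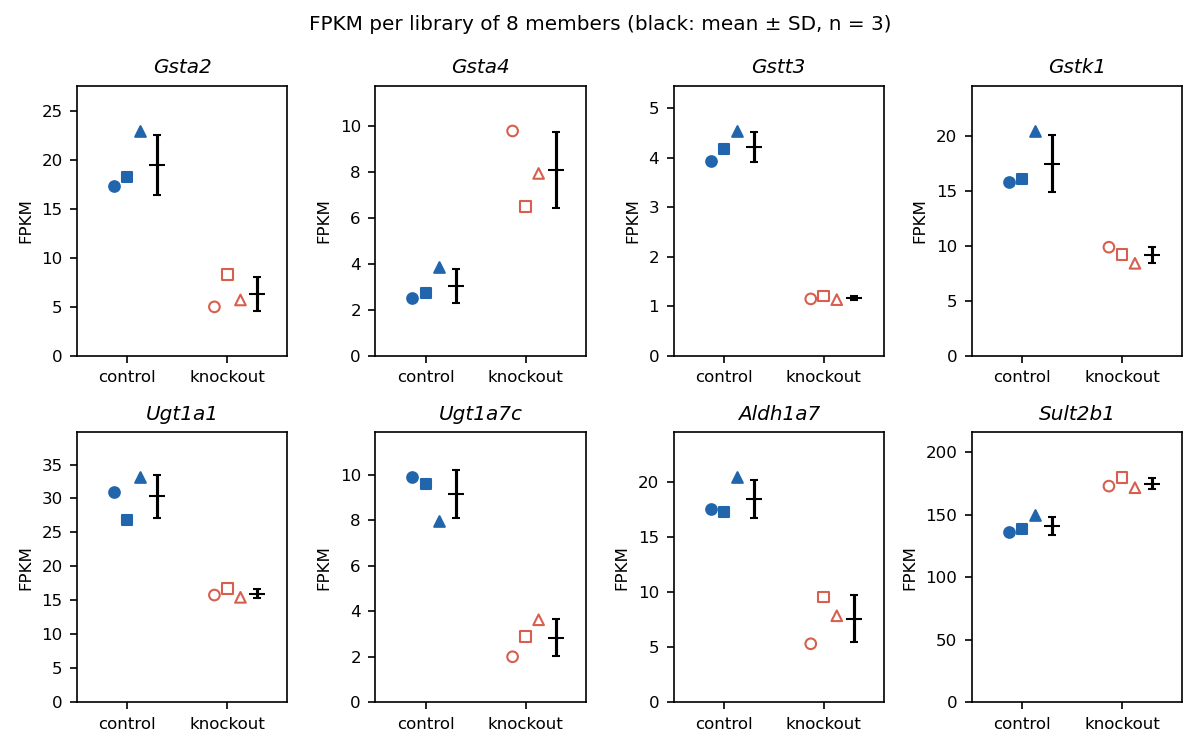
FPKM of 8 genes in each control (filled blue) and knockout (open red) library, with the mean ± SD of 3 libraries in black. Gsta4 and Sult2b1 are higher in every knockout library, the other 6 are lower in every knockout library, and every axis starts at 0.

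Theta, kappa and zeta class genes fell. Gstt3 (chromosome 10, 75774115 to 75781414) is a cytosolic transferase of the theta class and had the smallest adjusted p of all 35 genes. It gave 3.93, 4.18 and 4.54 FPKM against 1.15, 1.21 and 1.14 FPKM, and the 3 knockout libraries were almost equal. Its mean fell from 4.21 ± 0.307 to 1.17 ± 0.0406 FPKM (-1.27 ± 0.09, limma adjusted p = 0.000724). The other theta genes of the cluster were under the limit and carry no test. Gstt2 was at 0.860 ± 0.264 against 0.362 ± 0.0590 FPKM and Gstt1 at 0.183 ± 0.0657 against 0.0314 ± 0.0344 FPKM, both lower in mean, while Gstt4 was near 0 and higher in mean at 0.00878 against 0.0177 FPKM. Gstk1, a transferase of mitochondria and peroxisomes, gave 15.8, 16.1 and 20.4 FPKM against 9.88, 9.22 and 8.42 FPKM (-0.85 ± 0.11, limma adjusted p = 0.00468), with no overlap between groups. Gstz1, which isomerises maleylacetoacetate in tyrosine breakdown, gave 12.5, 12.9 and 16.3 FPKM against 8.72, 8.87 and 9.25 FPKM (-0.57 ± 0.10, limma adjusted p = 0.0110). Its knockout libraries lay close together and control 264 lay above the other controls. All 3 of these calls were kept under every alternative in which the gene was tested.

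The mu class includes a cluster of 7 coding genes on chromosome 3 (107895821 to 108044894), which conjugate aromatic electrophiles and epoxides. Of 6 mu genes tested, 4 fell and 2 did not pass. Gstm5 gave 38.0, 44.8 and 46.7 FPKM against 27.3, 28.0 and 27.9 FPKM (-0.62 ± 0.09, limma adjusted p = 0.00554). Gstm1 gave 32.4, 31.9 and 36.6 FPKM against 20.6, 23.7 and 23.8 FPKM (-0.55 ± 0.09, limma adjusted p = 0.00781). In both genes the groups did not overlap, and both calls were kept under every alternative. Gstm2, the most abundant mu gene, gave 48.6, 44.1 and 59.7 FPKM against 33.4, 40.1 and 35.4 FPKM, and knockout 265 came close to control 262. Its difference (-0.47 ± 0.12, limma adjusted p = 0.0383) was not called without control 261 or without 263, 265 or 266 (adjusted p = 0.0821, 0.123, 0.0564 and 0.111), nor with a sex term, without a filter or in the length and GC adjustment. Gstm4 gave 3.57, 3.65 and 3.65 FPKM against 2.74, 2.02 and 2.28 FPKM (-0.47 ± 0.10, limma adjusted p = 0.0181), and its call was lost in that adjustment, without a filter and without 261, 262, 265 or 266 (adjusted p = 0.0526, 0.0502, 0.0530 and 0.0640). Gstm7 lay just above the test limit through its controls alone and did not pass, with 1.12, 0.765 and 1.33 FPKM against 0.673, 0.428 and 0.665 FPKM (-0.38 ± 0.15, limma adjusted p = 0.114), and was called lower with array weights (adjusted p = 0.0253). Gstm6, between Gstm7 and Gstm3 on the chromosome, had means of 2.15 ± 0.743 and 2.34 ± 0.424 FPKM and did not pass (0.10 ± 0.19, limma adjusted p = 0.711). In proportion to Gstm2, Gstm1 was at 0.667 ± 0.0555 in controls and 0.628 ± 0.0413 in knockouts.

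The most abundant glutathione transferase was not called. Gsto1 of the omega class, a thiol transferase that also reduces dehydroascorbate, gave 191, 217 and 223 FPKM against 188, 177 and 201 FPKM (-0.15 ± 0.09, limma adjusted p = 0.243). Control 261 lay inside the range of the knockouts. Gstp1, the pi class transferase common in epithelia, gave 34.8, 29.2 and 44.4 FPKM against 35.3, 34.0 and 31.9 FPKM and also overlapped (-0.08 ± 0.14, limma adjusted p = 0.723). The differences of Gstp1, Gsto1 and Gstp2 turned positive in the length and GC adjustment (0.0728, 0.0018 and 0.0342). Gstp1 shares 62.3% of its windows with Gstp2, as the processed pseudogene Gstp-ps does 71.1%, so the levels of these 3 genes are not separate measurements. Gsto1 held 46.8% of the summed FPKM of the family in controls and 53.0% in knockouts. That sum was 413, 437 and 499 FPKM over the controls and 353, 349 and 365 FPKM over the knockouts.

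Every tested UDP-glucuronosyltransferase fell, and all came from the Ugt1a locus on chromosome 1 (88055388 to 88220002). Ugt1a1, the bilirubin-conjugating form, gave 30.9, 26.9 and 33.1 FPKM against 15.8, 16.8 and 15.5 FPKM. Its mean fell from 30.3 ± 3.14 to 16.01 ± 0.682 FPKM (-0.88 ± 0.09, limma adjusted p = 0.00247), with the groups far apart. Ugt1a7c, of the subgroup that acts on phenols and bulky substrates, gave 9.87, 9.60 and 7.95 FPKM against 2.004, 2.89 and 3.63 FPKM. Its means were 9.14 ± 1.04 and 2.84 ± 0.813 FPKM (-1.42 ± 0.17, limma adjusted p = 0.00347), and the gap to the other 3 Ugt1a genes was not tested. Its FPKM was 0.319, 0.357 and 0.240 of that of Ugt1a1 over the controls and 0.127, 0.172 and 0.235 over the knockouts, so 266 came close to control 264. Ugt1a6a, a phenol-conjugating form, gave 16.9, 17.2 and 15.7 FPKM against 11.5, 8.65 and 11.8 FPKM (-0.60 ± 0.12, limma adjusted p = 0.0147). These 3 calls were kept under every alternative. Ugt1a6b entered the test through its controls alone, with 1.61, 1.62 and 1.52 FPKM against 0.732, 0.908 and 0.724 FPKM (-0.53 ± 0.10, limma adjusted p = 0.0144). It was not called without 263 or 266 (adjusted p = 0.0539 and 0.0547) or in the length and GC adjustment.

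The 9 Ugt1a genes share 1311 exonic bases, 58.9% of Ugt1a1, 31.1% of Ugt1a7c, 30.4% of Ugt1a6a and 55.0% of Ugt1a6b, so reads in the common exons cannot be told apart between them. Sharing between only some of the genes adds to this. Of the 50-base windows of the longest transcript, 19.8% of Ugt1a1, 30.7% of Ugt1a7c, 61.1% of Ugt1a6a and 19.3% of Ugt1a6b occur in no other gene. Ugt1a6b shares 80.7% of its windows with Ugt1a7c, and Ugt1a7c shares 69.1% with Ugt1a6a. The part of read assignment in the order of the 4 genes was not tested. Ugt1a8 did not reach the limit, with 0.178, 0.406 and 0.333 FPKM against 0.0861, 0 and 0.0560 FPKM, and its knockout libraries were all below its controls. The 10 Ugt2 genes, the steroid-conjugating branch common in liver, were at most 0.0727 FPKM, with 7 of them at 0 in all 6 libraries. Summed over the family, the level was 59.5, 56.0 and 58.6 FPKM over the controls and 30.3, 29.3 and 31.7 FPKM over the knockouts.

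Sulfotransferases were represented by Sult2b1 (ENSMUSG00000003271, chromosome 7, 45729983 to 45784669), which held 99.2% of the family's summed FPKM in controls. It gave 136, 138 and 149.6 FPKM against 173, 180.0 and 172 FPKM, and every knockout library was above every control. The mean rose from 141 ± 7.18 to 175 ± 4.40 FPKM, 1.24-fold (0.31 ± 0.07, limma adjusted p = 0.0203). The call was lost without any 1 library other than control 264 (adjusted p = 0.0743, 0.0554, 0.0725, 0.0737 and 0.0702 without 261, 262, 263, 265 and 266), and with a sex term. Of the other 25 sulfotransferase genes 19 were at 0 in all 6 libraries. Sult1a1, a phenol sulfotransferase just under the test limit, gave 0.726, 1.37 and 0.556 FPKM against 0.463, 0.261 and 0.735 FPKM, with the groups overlapping.

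**Figure D4:**
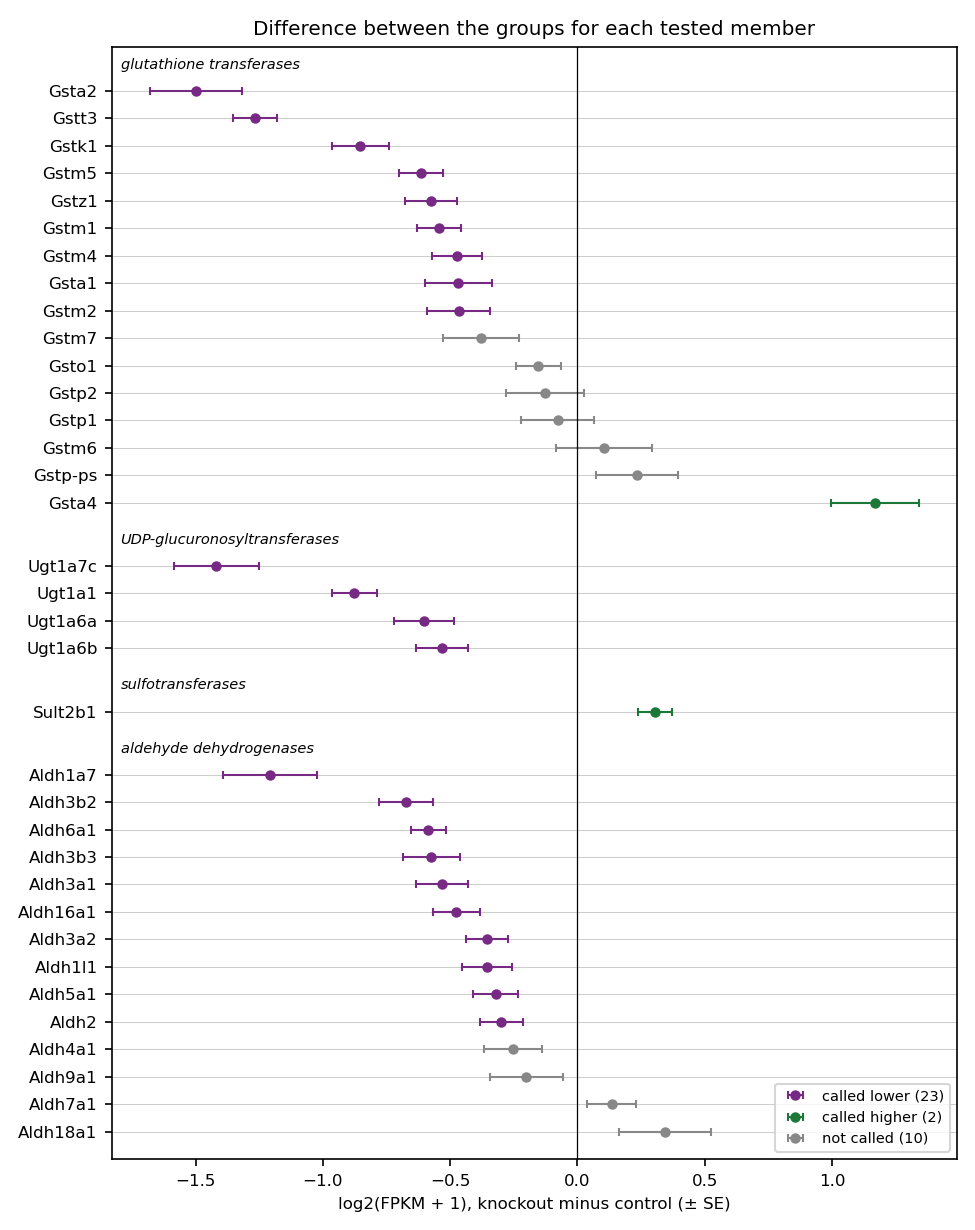
Difference in log2(FPKM + 1), knockout minus control, ± SE from limma for the 35 tested genes by family; purple points were called lower (23), green higher (2) and grey not called (10). Gsta2 lies lowest at -1.50 and Gsta4 highest at 1.17, and all 4 Ugt1a genes lie below 0.

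Aldh1a7 (chromosome 19, 20692953 to 20727562), a paralog of the retinaldehyde dehydrogenase Aldh1a1, had the largest fall among the 14 tested members of its family. It gave 17.6, 17.3 and 20.4 FPKM against 5.31, 9.56 and 7.85 FPKM (-1.21 ± 0.18, limma adjusted p = 0.00699). Knockout 263 was lowest and 265 highest of the knockouts, as for Gsta2. Aldh3b2, which oxidises long-chain aldehydes at lipid droplets, gave 57.8, 59.3 and 74.0 FPKM against 39.3, 37.4 and 41.5 FPKM (-0.67 ± 0.11, limma adjusted p = 0.00772). These 2 calls were kept under every alternative. Aldh3b3, the neighbour of Aldh3b2 and a form of the plasma membrane, gave 7.65, 9.28 and 7.13 FPKM against 4.64, 5.64 and 4.85 FPKM (-0.57 ± 0.11, limma adjusted p = 0.0144), and lost its call without 263 or 266 (adjusted p = 0.0563 and 0.0542). Of the windows of Aldh3b2 23.5% are shared with Aldh3b3. Sebaceous gland markers, given above, were lower in the same libraries, and their part in these values was not tested.

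Both Aldh3a genes fell, and their groups did not overlap. Aldh3a1, abundant in the cornea and active on lipid aldehydes, gave 5.41, 5.74 and 4.60 FPKM against 3.72, 3.03 and 3.22 FPKM (-0.53 ± 0.10, limma adjusted p = 0.0142), a call lost without 265 or 266 (adjusted p = 0.0505 and 0.0541) and in the length and GC adjustment. Aldh3a2, the fatty aldehyde dehydrogenase, gave 19.7, 21.6 and 17.8 FPKM against 14.8, 14.8 and 15.8 FPKM (-0.36 ± 0.08, limma adjusted p = 0.0251). That call was lost without any 1 library other than control 264 (adjusted p = 0.0725, 0.0571, 0.0877, 0.0808 and 0.0622 without 261, 262, 263, 265 and 266), without a filter, with a sex term and under median or trimmed mean scaling.

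Among mitochondrial and metabolic members, Aldh6a1, the methylmalonate semialdehyde dehydrogenase of valine and thymine breakdown, gave 13.3, 14.9 and 13.9 FPKM against 8.56, 9.15 and 9.28 FPKM (-0.59 ± 0.07, limma adjusted p = 0.00336). That call and the call of the atypical member Aldh16a1, at 22.8, 18.99 and 22.7 FPKM against 15.9, 14.02 and 15.6 FPKM (-0.48 ± 0.09, limma adjusted p = 0.0139), were kept under every alternative. Aldh2, which oxidises acetaldehyde in mitochondria and was the most abundant of the family, gave 178, 172 and 194 FPKM against 139, 161 and 142 FPKM (-0.30 ± 0.09, limma adjusted p = 0.0474). The Aldh2 call was lost without any 1 library other than 265 (adjusted p = 0.106, 0.0640, 0.0606, 0.157 and 0.155 without 261, 262, 264, 263 and 266), without a filter or an intensity trend, with a sex term, under median and trimmed mean scaling and in the length and GC adjustment. Aldh5a1, the succinate semialdehyde dehydrogenase, gave 5.37, 5.25 and 5.36 FPKM against 3.64, 4.66 and 3.94 FPKM (-0.32 ± 0.09, limma adjusted p = 0.0435), and its call was lost without 261, 262, 264, 263 or 266 (adjusted p = 0.109, 0.0889, 0.0665, 0.135 and 0.132) and under each scaling between libraries, in the length and GC adjustment, with either other filter and with a sex term. Aldh1l1, which oxidises formyl-tetrahydrofolate, gave 1.51, 1.81 and 1.73 FPKM against 1.14, 1.04 and 1.11 FPKM (-0.35 ± 0.10, limma adjusted p = 0.0440), a call lost without any 1 library (adjusted p = 0.0652 without 261 to 0.117 without 266), under each scaling, in the length and GC adjustment, without a filter and with a sex term. The groups of these 5 genes did not overlap.

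Enzymes of proline metabolism did not pass. Aldh18a1, which makes the proline precursor, gave 10.4, 7.81 and 13.6 FPKM against 15.1, 12.9 and 12.5 FPKM (0.34 ± 0.18, limma adjusted p = 0.210), with control 264 inside the range of the knockouts, and was called higher without control 264 (adjusted p = 0.0396) and with array weights. Aldh4a1, which acts in proline breakdown, gave 25.2, 25.2 and 24.7 FPKM against 22.7, 17.2 and 23.1 FPKM (-0.25 ± 0.11, limma adjusted p = 0.149), with knockout 265 well below the rest. Aldh9a1 of carnitine synthesis and Aldh7a1 of lysine breakdown did not pass either (adjusted p = 0.345 and 0.340, limma).

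Among the 52 genes that were not tested, 28 were at 0 in all 6 libraries. Another 13 had a mean above 0.1 FPKM in either group, and in all 13 the knockout mean was the lower, as for the pi gene Gstp3 at 0.730, 0.827 and 0.989 FPKM against 0.376, 0.298 and 0.504 FPKM. Gstm3, Gsto2, Gstt1 and Ugt1a8 were above 0.1 FPKM in the controls alone. Sult4a1 (0.120 against 0.117 FPKM) and Gstm2-ps1 (0.233 against 0.223 FPKM) were nearly level, with overlapping groups. Over all 5361 untested genes above 0.1 FPKM in either group the knockout mean was the lower in 62.8%. The other 11 untested members stood at or below 0.1 FPKM, and in 6 of them the knockout mean was the higher. These low values carry no test. The genes nearest the limit were Gstm7 and Gstp2 above it (1.07 and 1.23 FPKM in control means) and Sult1a1 and Gstt2 below it (0.883 and 0.860 FPKM). Control 264, the library whose deviations followed gene length most, was the highest control in 23 of the 35 tested genes, against 49.8% of all genes tested. Over all 87 genes the summed level was 1014, 1026 and 1154 FPKM over the controls and 866, 889 and 885 FPKM over the knockouts.

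Genes that supply, precede or export the conjugates were listed apart, and those named are the 2 with the smallest p of each list unless said otherwise. Their counts stand beside 15.6% lower and 7.91% higher over all genes tested. Counts without control 264 stand beside 2270 lower (16.8%) and 1514 higher of 13478 genes tested in that fit. Among called genes of these lists, Ugt3a2, Cyp2f2 and Nfe2 passed the filter on low values through the controls alone and Slc7a11 and Papss2 through the knockouts alone. Alcohol dehydrogenases, aldo-keto reductases and other carbonyl enzymes fell in 10 of 21 tested and rose in 1 (median log2 -0.33). The 1 that rose, the aldo-keto reductase Akr1b8, which reduces reactive aldehydes, went from 3.06 ± 0.645 to 12.7 ± 2.80 FPKM (1.74 ± 0.17, limma adjusted p = 0.00241), while the carbonyl reductase Dhrs4 was at -0.55 ± 0.07. Oxidation and hydrolysis enzymes fell in 11 of 20 and rose in 1 (median -0.35), with Fmo2, a flavin monooxygenase, at -1.05 ± 0.19 and the cytochrome P450 Cyp2s1 at -0.41 ± 0.08, the latter not called without 263 or 265. Without control 264 these 2 lists had 9 and 10 genes lower and 1 and 1 higher.

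Of 23 genes of glutathione synthesis, recycling and breakdown 5 fell and 3 rose (median -0.13), or 6 and 4 without control 264. Ggt6 of the gamma-glutamyltransferase family was at -0.64 ± 0.07 and the gamma-glutamylcyclotransferase Ggct at -0.48 ± 0.08. The subunits of the rate-limiting enzyme of glutathione synthesis, named here after their values were seen, did not pass, Gclc at -0.13 ± 0.06 and Gclm at -0.21 ± 0.10 (limma adjusted p = 0.148 and 0.180). Of 12 glutathione peroxidases and peroxiredoxins 2 fell (median -0.15), Prdx5 at -0.77 ± 0.11 and Prdx6 at -0.42 ± 0.10, and without control 264 3 fell and 2 rose. The call of Prdx6 was lost without 263, 265 or 266, without a filter and with a sex term. Gpx4, the most abundant gene of this list in controls, was named after its values were seen and did not pass. It gave 1750, 1791 and 896 FPKM against 108, 786 and 363 FPKM (-2.16 ± 0.69, limma adjusted p = 0.0629), with no overlap between groups. Of 8 other glutathione transferases and related proteins, most of them membrane proteins, 2 fell and 2 rose (median -0.06), or 2 and 3 without control 264. Those that fell were the microsomal transferases Mgst2 (-1.21 ± 0.17) and Mgst1 (-1.11 ± 0.22). Those that rose were the prostaglandin E synthase Ptges (1.003 ± 0.12) and Gstcd (0.35 ± 0.08). Mgst1, which is also on the sebaceous gland list, and Gstcd were named after their values were seen. Of 8 genes of UDP-glucuronic acid supply and related glycosyl transfer 3 fell and 1 rose (median -0.08), as without control 264. Ugt3a2, which passed the filter through its controls alone (1.04 ± 0.116 against 0.161 ± 0.111 FPKM), was at -0.82 ± 0.14 and Uxs1, which converts UDP-glucuronic acid to UDP-xylose, at 0.34 ± 0.07 (not called without 263 or 265). Ugdh, the enzyme that makes UDP-glucuronic acid, was named after its value was seen and did not pass (-0.08 ± 0.09, limma adjusted p = 0.541). Of 12 genes of sulfate supply and removal 2 fell, the sulfatase Arsa (-0.69 ± 0.08) and the sulfite oxidase Suox (-0.44 ± 0.07), and 2 rose (median -0.22), while without control 264 3 fell and 1 rose. Conjugate transporters fell in 4 of 12 and rose in 1 (median -0.13), or 3 and 2 without control 264, with the organic anion carrier Slco3a1 at -0.43 ± 0.07 and the efflux pump Abcg2 at 0.60 ± 0.11, the latter not called without 266.

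Of 19 receptors and factors that sense xenobiotics or oxidative stress 5 fell and 3 rose, beside 15.6% and 7.91% of all genes tested. Without control 264, 6 fell and 4 rose, beside 2270 (16.8%) and 1514 of all 13478 genes tested in that fit. The median of -0.06 equals that of all genes. The nuclear receptor Pparg, which is also on the sebaceous gland list, was at -0.62 ± 0.07 and Tiparp, a target and repressor of the aryl hydrocarbon receptor, at 0.74 ± 0.10. Nfe2l2, which encodes NRF2, and Ahr, the aryl hydrocarbon receptor, were named after their values were seen. Nfe2l2 rose (0.49 ± 0.11, limma adjusted p = 0.0208), a call lost without 261, 262 or 263 and without a filter. Ahr fell (-0.34 ± 0.08, limma adjusted p = 0.0252), a call lost without 261, 262, 263 or 266, without a filter, with a sex term and under median and trimmed mean scaling. The cytochrome P450 Cyp1a1 of the oxidation list, also named after its value was seen, fell while Tiparp rose. Its means were 3.55 ± 0.765 and 1.63 ± 0.323 FPKM (-0.78 ± 0.16, limma adjusted p = 0.0159). That call was lost without 261 or 266 and without a filter.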

How the data were processed

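The analysis used 6 libraries of epidermal RNA and 1 table in which the authors deposited FPKM per Ensembl gene and library, per the file headers. CASAVA and Cufflinks with GRCm38 are named in the submitters' processing notes, without versions; aligner, annotation and strandedness were not given in the sources used here. FPKM are not counts, so read depth was not used; summed FPKM ran from 609369 to 672912 per library.

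Symbols, positions and lengths came from GENCODE M21 (GRCm38), which matched 49109 of 49452 identifiers; of rows sharing a symbol, the one with the highest mean stayed (66 rows left out). The 13500 genes whose mean reached 1 FPKM in either group were fitted as log2(FPKM + 1) with limma 3.58.1 in R 4.3.3 (intensity trend, prior degrees of freedom 2.80, no covariates), two-sided, Benjamini-Hochberg adjusted, threshold 0.05. Differences are knockout minus control on that scale, which understates changes of low genes. The fit was first tested on simulated data with independent noise for each gene. It recovered 82% of 2-fold and 95% of 4-fold changes and called 9 unchanged genes. The simulated data held no length trend, so the effect of that trend on the calls was not tested by them. The members and lists were chosen with earlier results of these data known. Genes named are every called member, the 2 most abundant members of each family and the 2 genes with the smallest p in each pathway list, and others were named after their values were seen. Alternatives were other pseudocounts, filters, scalings and variance models, a sex term, a length and GC adjustment, a threshold of 0.10 and each library left out; a group left with 2 libraries is assumed to vary like the rest. The alternatives for pathway genes and lists were added after seeing the data. Upstream sequences came from RefSeq (GRCm38.p6) and were aligned with Biopython 1.88.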

Additional observations from a re-analysis of the deposited data

How the results depend on the processing

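Of the 25 called detoxification genes 14 kept their call under every alternative that tested them (up to 19), and none of the 25 changed direction under any; 11 lost the call in at least 1. The genes called lower numbered 23, and 15 in the length and GC adjustment, 13 to 19 with 1 library left out. The shares of all genes called lower were 15.6%, 12.1% in that adjustment and 7.3% to 16.8% with 1 library left out. The genes called higher numbered 2, and 1 with a sex term, 1 to 3 with 1 library left out. All tested genes called numbered 3169, and 6272 with array weights, 1852 with a sex term and 1462 (without 263) to 3784 (without control 264) with 1 library left out, among them 1923 without 261, 1745 without 265 and 1538 without 266. Among genes that did not pass, the sign turned in the length and GC adjustment for Gstp2 (0.0342), Gstp1 (0.0728) and Gsto1 (0.0018). With 1 library left out, it turned without knockout 266 for Gstp2 (range -0.2101 to 0.0176), without control 264 for Gstp1 (-0.2146 to 0.0777) and without control 262 for Gstm6 (-0.0591 to 0.279). The cause of these changes was not tested. The sex term rests on 2 males among controls and 1 among knockouts, as read from sex-linked genes. No paired analysis was possible because the library numbers differ for every library. The read depth behind values near 1 FPKM is unknown, which limits what low genes show.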
